A study of Mus musculus with 6 samples.

Results

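The genes described are 10 components of inflammasomes and of pyroptosis, taken by symbol from the 54532 genes of the deposited count table: the NLR sensors Nlrp3, Nlrp1a, Nlrp1b and Nlrc4, the bacterial protein receptors Naip2 and Naip5, the adaptor Pycard, the inflammatory caspases Casp1 and Casp4, and the pore-forming effector Gsdmd. All 10 symbols were found once each. They were measured by RNA-seq in N9 microglia, an immortalized line derived from mouse brain. RNA came from 3 samples of untreated control cells and from 3 samples of cells exposed to lipopolysaccharide (LPS, which gram-negative bacteria carry in their outer membrane) at 1 µg/ml for 6 h. Nothing in the labels says whether samples of a group were separate cultures, so p-values measure the spread between these samples. N9 is a line grown in culture, without the other cells of the brain. Because each library is bulk RNA, fewer expressing cells and less RNA per cell cannot be told apart.

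Inflammasomes are protein complexes that form in the cytosol of macrophages and microglia when a sensor meets a microbial product or a sign of cell damage. The sensor, usually through the adaptor ASC (the product of Pycard), gathers caspase-1, which cleaves the precursors of the cytokines IL-1β and IL-18 and the protein gasdermin D. In mice caspase-4, often called caspase-11, binds LPS in the cytosol and cleaves gasdermin D as well. The freed part of gasdermin D forms pores in the plasma membrane, and death by this route is called pyroptosis. It is well known in macrophages that LPS acting on its surface receptor raises the amount of some of these components before any complex forms, a step called priming. The comparison of LPS-stimulated with control N9 microglia bears on which of the 10 transcripts differ at 6 h.

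Total counts per library ran from 16363767 to 17956772. Of 12 microglia and macrophage markers, 9 passed the filter on low counts, with Csf1r at 7140 to 8027 counts per library, whereas P2ry12 had 3 to 6, Aif1 4 to 9 and Sall1 0 or 1. Levels are given as counts-per-million values (CPM), relative to the library size after TMM scaling. Over the 12 markers the summed level was 1710 to 1810 CPM in control and 1780 to 1840 CPM with LPS. Of 5 neuron markers only Tubb3 passed the filter, at 3.39 to 4.59 CPM in control and 10.9 to 14.1 CPM with LPS, and the other 4 had at most 6 counts in any library. Of 5 endothelial markers only Kdr passed it, with 2, 2 and 8 counts in control and 13, 19 and 21 with LPS, and the summed level of the list was 0.34 to 0.915 CPM in control and 1.65 to 2.32 CPM with LPS. Of 5 astrocyte markers 3 were tested, with Gja1 higher (68.0 to 77.1 CPM) and Aldh1l1 lower (28.3 to 23.1 CPM), and the summed level was 96.0 to 98.7 CPM in control and 96.0 to 105 CPM with LPS. Of 5 oligodendrocyte markers 2 were tested, with Mbp lower (36.1 to 28.5 CPM), at a summed 45.6 to 54.3 CPM in control and 42.6 to 43.4 CPM with LPS. The part of these markers in the results was not tested. Markers of hepatocytes, a cell type that these cultures should lack, stood apart in control replicates 2 and 3: all 10 markers of a list were higher there than in the other 4 libraries. Summed over the list, control replicate 1 had 4 counts, control replicate 2 had 264 and control replicate 3 had 461, against 5, 4 and 9 in the LPS samples. Calls of named genes that changed when 1 library was left out are given beside those genes.

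LPS-stimulated microglia held more RNA of Casp4 and Nlrp3, and to a lesser degree of Casp1, Naip2 and Gsdmd. Of the 10 genes, 9 passed edgeR's filter on low counts and were tested. By edgeR's quasi-likelihood test, 5 of the 9 passed an adjusted p of 0.05 with a higher LPS level, where 18.7% of all tested genes were. The call of Gsdmd was lost in 5 of 14 alternative fits. One of these was DESeq2, which called 4 of the 10 higher. A DEG had to pass that p and to change by more than 1.5 on the log2 scale. Casp4 and Nlrp3 were up-regulated DEG, a call that 2.4% of tested genes received. None of the 9 was lower at that p in edgeR (0 also at an unadjusted p under 0.05), where 15.7% of tested genes were lower and 0.252% were down-regulated DEG, while DESeq2, which also tested Nlrp1a, called that gene lower. The median log2 fold change of the 9 tested genes was 0.28, beside 0.00 (0.00356) over all tested genes. In 6 of the 9 the LPS libraries all lay above the controls, which held for 23.7% of tested genes.

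**Figure D1:**
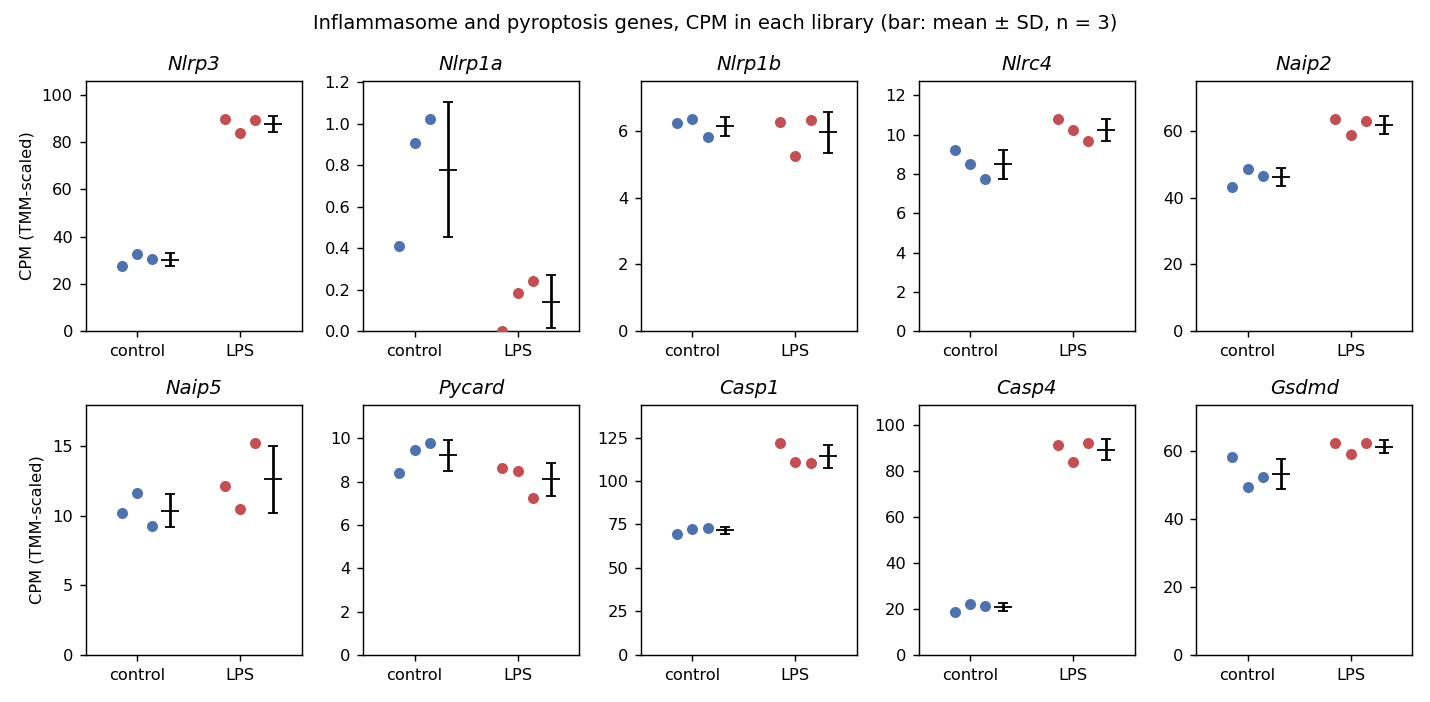
CPM (scaled by TMM) of the 10 genes in each of the 6 libraries, with control in blue, LPS in red, and the mean ± SD (n = 3) beside each group; each panel has its own axis from 0. Casp4 and Nlrp3 show the widest separation among the tested genes, and Nlrp1b, Naip5 and Pycard overlap between groups.

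**Figure D2:**
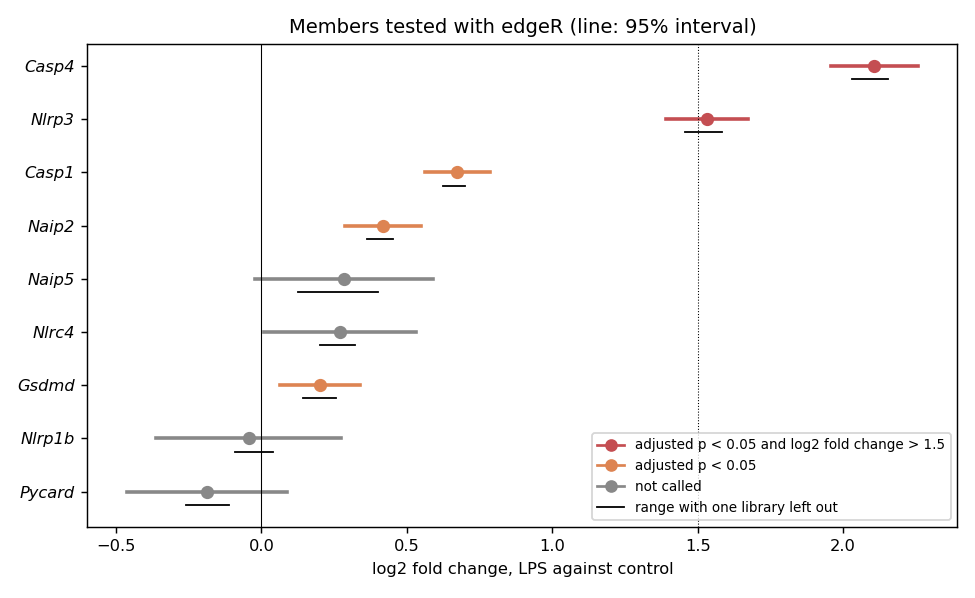
The log2 fold change of the 9 tested genes, LPS against control, with its 95% interval from edgeR as a coloured line and the range over the fits with one library left out as a black line. The dotted line marks a log2 fold change of 1.5, which the interval of Nlrp3 (1.39 to 1.67) spans and that of Casp4 (1.96 to 2.26) does not.

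The inflammatory caspases were both higher with LPS, to different degrees. Casp4 (ENSMUSG00000033538) lies on the plus strand of chromosome 9 of the mouse build GRCm38 from 5308828 to 5336783. Counts are given here in the order of the replicate numbers. Control samples held 320, 392 and 392 reads of Casp4, and LPS samples held 1440, 1377 and 1512. The lowest LPS library thus held more than 3 times the counts of the highest control library. In CPM Casp4 went from 20.7 ± 1.81 to 89.1 ± 4.46 (SD, n = 3). Its log2 fold change of 2.11 (edgeR, standard error, SE, 0.07, adjusted p = 5.2e-12), or 4.31-fold, was the largest among the tested genes of the 10, and leaving out single libraries gave values between 2.03 and 2.15.

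Casp1 (ENSMUSG00000025888), whose product matures IL-1β and IL-18, is the neighbour of Casp4 on the same strand, from 5298517 to 5307265, with 1562 bases between them. Its counts were 1189, 1280 and 1353 for control and 1924, 1815 and 1808 after LPS, so that the groups did not overlap. It went from 71.6 ± 1.89 CPM (SD, n = 3) to 114 ± 6.68 CPM, higher by a log2 fold change of 0.67 (edgeR, SE 0.05, adjusted p = 8.8e-08), or 1.6-fold, and each of the 6 fits missing a library called it. The next gene of the cluster, Casp12, named for its position after its values were seen, had 0 counts in every library. In each library the reads of Casp4 were set against those of Casp1, a ratio that needs no scaling between libraries and is given as the geometric mean of 3 libraries. There were 0.288 reads of Casp4 per read of Casp1 in control cells and 0.78 with LPS, a difference in the log2 ratio of 1.44 with no overlap between groups (two-sided exact permutation test, p = 0.1, the smallest that 3 against 3 libraries allow; 0.12 after adjustment over the 6 ratios computed).

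The sequence before the start site is shown for the called DEG Casp4 and Nlrp3 and for Casp1, the neighbour that changed less, to set the promoters side by side. RefSeq windows on GRCm38.p6 were found for 9 of the 10 genes (12 windows), and the 250 bases before each start site were searched on both strands for GGG and CC with any 5 bases between them (letters of a site for NF-kappa B, a factor activated by LPS signalling), TTTC repeated after any 2 bases (an interferon-stimulated response element) and TTC and GAA with any 3 bases between them (a STAT site). Capitals mark matches to the first, and the windows shown held no match to the other 2. The windows lie on the plus strand at chr9:5308599-5308848 for Casp4, chr11:59541319-59541568 for Nlrp3 and chr9:5298267-5298516 for Casp1.
Casp4: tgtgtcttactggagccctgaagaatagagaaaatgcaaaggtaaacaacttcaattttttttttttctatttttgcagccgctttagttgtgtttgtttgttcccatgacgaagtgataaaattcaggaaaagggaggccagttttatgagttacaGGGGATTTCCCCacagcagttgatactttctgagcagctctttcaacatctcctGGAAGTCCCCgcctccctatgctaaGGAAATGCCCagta
Nlrp3: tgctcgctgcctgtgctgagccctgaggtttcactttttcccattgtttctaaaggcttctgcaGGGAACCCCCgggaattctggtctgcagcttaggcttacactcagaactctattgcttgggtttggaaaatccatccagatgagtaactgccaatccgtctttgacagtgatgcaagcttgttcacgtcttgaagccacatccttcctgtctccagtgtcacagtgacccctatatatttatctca
Casp1: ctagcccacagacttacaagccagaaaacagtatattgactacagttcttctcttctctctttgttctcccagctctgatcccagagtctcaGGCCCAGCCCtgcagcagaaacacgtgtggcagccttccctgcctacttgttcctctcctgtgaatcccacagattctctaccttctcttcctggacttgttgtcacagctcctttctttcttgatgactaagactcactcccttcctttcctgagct
The window of Casp4 held 5 matches, 3 of them overlapping in 1 stretch that begins 93 bases before the start site and the others beginning 39 and 14 bases before it. Start sites here are those of RefSeq. The Casp4 window ends at 5308848, past the gene start of 5308828 given above, so the match at 14 bases lies within that gene span. At least 5 matches, a cut taken from the Casp4 window after it was seen, were found in 2.22% of the 32851 windows of all genes. A second RefSeq start of Casp4, 11 bases further on, gives a window with the same 5. Nlrp3 held 1 match, beginning 186 bases before the start site, and its second window held none. Casp1 held 1, beginning 158 bases before the start. At least 1 match is common, with 45.8% of all windows holding one. The other member with a match was Naip5, with 1. No window of the 9 genes held the letters of the interferon or STAT elements, which 2.98% and 7.02% of all windows held. A match is a run of letters, and binding was not measured.

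Among the sensors that passed the filter of edgeR, Nlrp3 was the one called a DEG. NLRP3 responds to many forms of cell stress, among them the loss of potassium from the cell. Nlrp3 (ENSMUSG00000032691) lies on the plus strand of chromosome 11 from 59541568 to 59566956. It had control counts of 471, 579 and 569 and LPS counts of 1416, 1378 and 1468. Control replicate 1 was the lowest of the controls, and every LPS library held more than 2 times the counts of any control. Nlrp3 went from 30.3 ± 2.68 CPM (SD, n = 3) to 87.7 ± 3.20 CPM, higher by a log2 fold change of 1.53 (edgeR, SE 0.07, adjusted p = 1.1e-10), or 2.89-fold. The increase passed the test whichever library was omitted, but its size lay close to the DEG threshold and was 1.46 without control replicate 1, leaving Casp4 as the single up-regulated DEG of the 10 in that fit.

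Nlrc4, which forms its complex together with NAIP proteins, did not pass the test. Its gene (ENSMUSG00000039193) is on the minus strand of chromosome 17 from 74425438 to 74459142. Counts were 158, 150 and 144 in control and 170, 168 and 159 with LPS. In CPM the LPS libraries (9.68 to 10.8) all lay above the control libraries (7.75 to 9.22). The log2 fold change was 0.27 (edgeR, SE 0.12, 95% interval 0.01 to 0.53, adjusted p = 0.104), and no fit that left out one library called it. Relative to Nlrc4 in the same library, Nlrp3 had 3.56 reads per read in control cells and 8.55 with LPS, a difference of 1.26 in the log2 ratio without overlap between groups (exact permutation test, two-sided, p = 0.1; adjusted 0.12).

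The NLRP1 paralogs are neighbours on the minus strand of chromosome 11, Nlrp1a (ENSMUSG00000069830) from 71092236 to 71144704 and Nlrp1b (ENSMUSG00000070390) from 71153102 to 71230733. Nlrp1b, a sensor of the protease of anthrax lethal toxin, had control counts of 107, 112 and 108 and LPS counts of 99, 86 and 104. The groups overlapped in CPM, and the log2 fold change was -0.04 (edgeR, SE 0.15, 95% interval -0.36 to 0.27, adjusted p = 0.852). Nlrp1a was the least counted of the 10, with 7, 16 and 19 reads in the control samples and 0, 3 and 4 in the LPS samples. Every LPS library was below every control library, although control replicate 1, with 7, lay closer to LPS replicate 3, with 4, than to the other controls. Over all libraries the ratio of control to LPS was 5.46, with a 95% interval from counting error alone of 2.43 to 14.4 (exact binomial, Clopper-Pearson).

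At a mean of 8.17 counts per library, Nlrp1a fell below edgeR's filter and has no value in the fit reported here. It was tested in 7 of the alternative fits, all of which called it a down-regulated DEG, with log2 fold changes from -2.98 to -1.84 and adjusted p from 0.00664 to 0.0489. DESeq2 gave -2.46 (adjusted p = 0.0337). The fits without control replicate 2 and without control replicate 3 did not test it. The other 4 fits missing 1 library kept both of these controls, where its counts were highest. The fits without a filter tested every gene. Agreement among the 7 thus depends in part on which fits could test it. The controls with the most Nlrp1a, replicates 2 and 3, are those with 264 and 461 counts of the hepatocyte list, and 6 of the 10 markers had 0 counts in every LPS library. Albumin (Alb) itself had 2 counts in control replicate 1, 155 in control replicate 2 and 292 in control replicate 3. The part of these libraries' other RNA in the Nlrp1a result was not tested. Set against Nlrp1b in the same library, Nlrp1a had 0.123 reads per read in control cells and 0.0206 with LPS, without overlap between groups (exact permutation test, two-sided, p = 0.1; adjusted 0.12), and the lowest of these ratios rests on the 0.5 added to a count of 0. The difference in the log2 ratio was -2.57, and it was -1.55 without LPS replicate 1, the library with that count, and -1.76 with 2 added in place of 0.5. Nlrp1a and Nlrp1b share few stretches: of all windows of 100 bases along the principal transcript, 0.0818% of those of Nlrp1a occur in Nlrp1b.

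The NAIP receptors bind bacterial proteins and hand the signal to NLRC4. Naip2 recognises the rod protein of type III secretion systems and Naip5 recognises flagellin. Both are on the minus strand of chromosome 13, Naip2 (ENSMUSG00000078945) from 100144063 to 100202092 and Naip5 (ENSMUSG00000071203) from 100211739 to 100246323. Naip2 had control counts of 742, 858 and 866 and LPS counts of 1002, 962 and 1033, with no overlap. It went from 46.2 ± 2.69 CPM (SD, n = 3) to 61.7 ± 2.64 CPM, higher by a log2 fold change of 0.42 (edgeR, SE 0.06, adjusted p = 8.1e-05), or 1.34-fold, and it was called whichever of the 6 libraries was omitted.

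Naip5 had control counts of 175, 205 and 172 and LPS counts of 191, 172 and 250, so that LPS replicate 3 stood above the rest while LPS replicate 2 lay among the controls. Its log2 fold change was 0.28 (edgeR, SE 0.14, 95% interval -0.02 to 0.59, adjusted p = 0.146), with 0.13 without LPS replicate 3 and 0.40 without LPS replicate 2. There were 4.46 reads of Naip2 per read of Naip5 in control cells and 4.94 with LPS, and the groups overlapped (exact permutation test, two-sided, p = 0.4; adjusted 0.4). Counts of this family are less certain than those of the other genes here. Of the windows of 100 bases in the principal transcript, 16.2% of those of Naip5 and 4.55% of those of Naip2 occur in transcripts of another gene, most often the pseudogene Naip3 for Naip5 and Naip1 for Naip2. For Nlrp3, Nlrc4, Pycard, Casp1, Casp4 and Gsdmd the share was 0%.

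Pycard, which encodes ASC, the adaptor that joins several sensors to caspase-1, did not pass the test. The gene (ENSMUSG00000030793) lies on the minus strand of chromosome 7 from 127989708 to 127993867. It had control counts of 144, 167 and 182 and LPS counts of 136, 139 and 119. In CPM the groups overlapped, at 9.22 ± 0.724 and 8.11 ± 0.755 (SD, n = 3), with a log2 fold change of -0.19 (edgeR, SE 0.13, 95% interval -0.46 to 0.09, adjusted p = 0.297). In each library Nlrp3 was also set against Pycard, and the reads per read went from 3.28 in control cells to 10.8 with LPS. This difference of 1.72 in the log2 ratio was the largest increase among the 6 ratios (exact permutation test, two-sided, p = 0.1; adjusted 0.12).

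Gsdmd (ENSMUSG00000022575), the gene of gasdermin D, lies on the plus strand of chromosome 15 from 75862327 to 75867408. Its counts were 997, 874 and 975 for control and 986, 972 and 1026 after LPS. Raw counts overlapped between groups, and after scaling the LPS libraries (59.3 to 62.5 CPM) lay just above the highest control (58.2 CPM). Its log2 fold change of 0.20 (edgeR, SE 0.06, adjusted p = 0.0233), or 1.15-fold, was the smallest of those called. The call was lost with DESeq2 (0.20, adjusted p = 0.0563) and in 4 of the 6 fits with one library left out, those without control replicate 2 (0.14, edgeR adjusted p = 0.114), control replicate 3 (0.0934), LPS replicate 1 (0.0675) or LPS replicate 3 (0.076). Per read of Casp1 there were 0.745 reads of Gsdmd in control cells and 0.538 with LPS, a difference of -0.47 in the log2 ratio with no overlap (exact permutation test, two-sided, p = 0.1; adjusted 0.12).

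**Figure D3:**
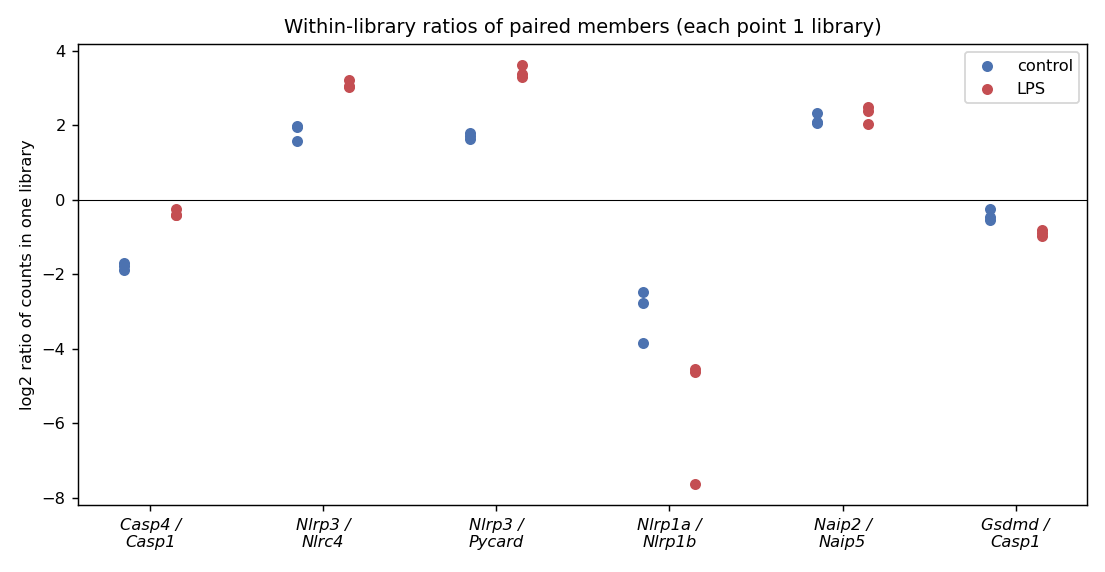
The log2 ratio of the counts of paired genes within each library (0.5 added to each count), control in blue and LPS in red, each point 1 library. Groups separate for every pair but Naip2 and Naip5, and the lowest point, for Nlrp1a and Nlrp1b, is the LPS library with 0 counts of Nlrp1a.

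The levels of the 10 genes were compared per length, as CPM divided by the deposited gene length in kilobases (RPKM). In control cells the order was Casp1 (47.8 ± 1.26; SD, n = 3), Gsdmd (22.5 ± 1.85), Naip2 (9.53 ± 0.554), Nlrp3 (7.47 ± 0.66), Casp4 (5.57 ± 0.487), Pycard (2.43 ± 0.191), Naip5 (1.99 ± 0.229), Nlrc4 (1.80 ± 0.156), Nlrp1b (0.973 ± 0.0454) and Nlrp1a (0.187 ± 0.0783). The libraries of Pycard and Naip5, and those of Naip5 and Nlrc4, overlapped, and all other neighbours in this order were separate. With LPS the level of Casp4 was 24.0 ± 1.20 and that of Nlrp3 21.6 ± 0.789, close to Gsdmd at 25.8 ± 0.779 and above Naip2 at 12.7 ± 0.544. Casp1 remained the highest at 76.3 ± 4.46. The adaptor Pycard, at 2.14 ± 0.199, overlapped with Nlrc4, which in turn overlapped with Naip5.

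The order depends on the length used. For Casp4 the deposited length is 3710 bases, whereas its longest principal transcript in GENCODE release M21 has 1435 bases in 9 exons. Per kilobase of that transcript, a choice made after the data were seen, the level of Casp4 was 14.4 ± 1.26 in control cells and 62.1 ± 3.11 with LPS (SD, n = 3). By that measure its rank among the 10 was 3 in control cells and 2 with LPS. Gsdmd moved to 29.8 ± 2.46 and 34.3 ± 1.03, and Nlrp1b to 1.48 ± 0.0693 and 1.44 ± 0.148. For Pycard both lengths were 3800 bases, of which 579 are coding. The second length therefore could not show how far its low level depends on the transcript assumed. Fold changes are not affected by the length.

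**Figure D4:**
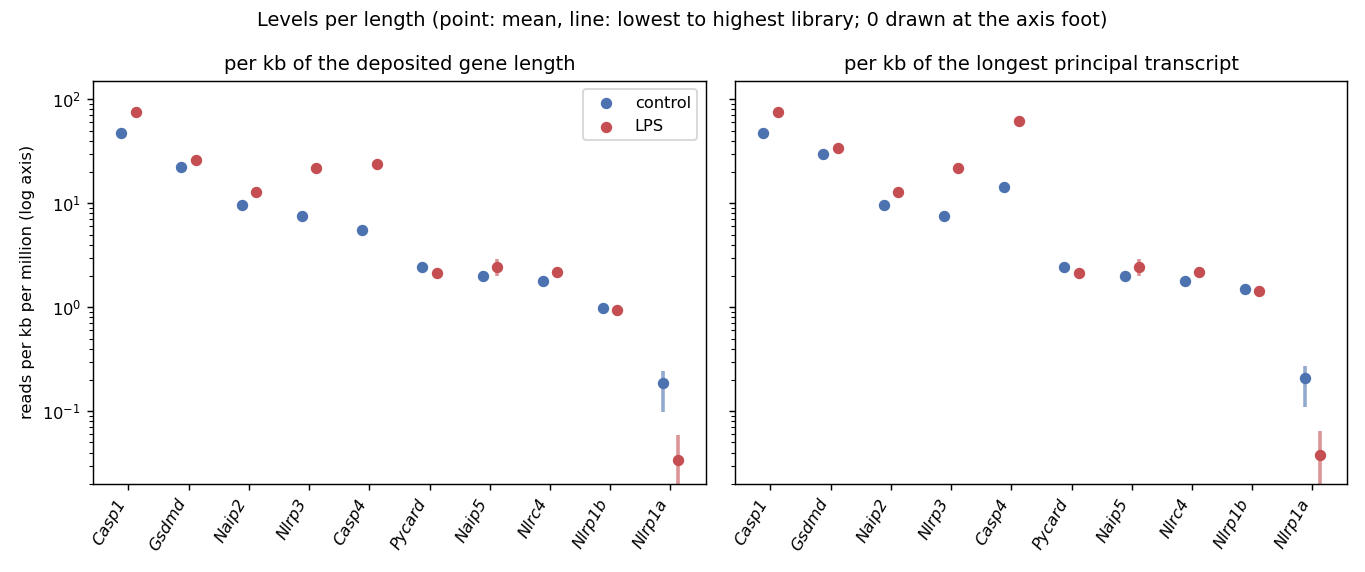
RPKM of the 10 genes on a log axis, per deposited gene length on the left and per longest principal transcript on the right; points are group means and lines run from the lowest to the highest of 3 libraries, with 0 drawn at the foot of the axis. Casp4 and Nlrp3 move towards Gsdmd with LPS on the left, and Casp4 lies above Gsdmd with LPS on the right.

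For 3 of the genes, those tested genes were sought whose log2 CPM, centred on their own mean, lay closest over the 6 libraries (smallest root mean square distance, among 10458 genes that averaged 50 counts or more). Closest to Casp4 were Phf11b (0.031 log2 units), Cd274 (0.055) and Zc3h12c (0.073). Closest to Nlrp3 were Fam49a (0.048), Ets2 (0.051) and Ralgds (0.056). Closest to Casp1, the most abundant of the 10 that was not a DEG, were Usp25 (0.032), Plagl2 (0.033) and Havcr2 (0.035). These distances mainly follow the size of the difference between groups, which the libraries share, and are given as a description.

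Other genes of the pathway were taken from 5 lists, to be read beside the 18.7% of all tested genes that were higher, the 15.7% that were lower and the 2.4% that were up-regulated DEG. The substrate cytokines and their antagonists had the highest median log2 fold change of these lists. Of 7 genes, 5 were tested and 4 were up-regulated DEG, with a median log2 fold change of 3.00 over those tested. The precursors of IL-1β and IL-18, which caspase-1 cleaves, were both among them. Il18 had control counts of 11, 6 and 15 and LPS counts of 38, 27 and 40, a log2 fold change of 1.84 (edgeR, SE 0.36, adjusted p = 0.00103). Il1b, at 3, 5 and 0 counts in control, reached 155, 172 and 122 with LPS. Il1a was at least 100-fold higher against 3 counts per control library, and Il1rn, the receptor antagonist, rose by 3.00. Il1a and Il1b, with few counts in control, passed the filter on low counts through their LPS libraries. The count and the median of this list therefore depend in part on the filter. The same route through the filter held for Gbp5 and Nod1 of the lists below.

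Among regulators of inflammasome assembly and LPS signalling, 25 of 26 genes in the table were tested, of which 15 were higher, 3 lower and 7 not called, with a median log2 fold change of 0.45. The 4 up-regulated DEG included guanylate-binding proteins, which coat bacteria and LPS in the cytosol and help caspase-11 to reach it. Gbp2 had control counts of 16, 21 and 13 and LPS counts of 767, 853 and 708, a log2 fold change of 5.66 (edgeR, SE 0.15, adjusted p = 3.6e-13). Gbp3 rose by 5.27 (edgeR, SE 0.11, adjusted p = 3.2e-14), and Gbp5, with 0, 0 and 3 control counts, was at least 25-fold higher. The remaining DEG, Eif2ak2, which encodes the kinase PKR, rose by 1.62 (edgeR, SE 0.05, adjusted p = 5.2e-12).

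The 3 lower genes, named with their values in view, were the LPS receptor gene Tlr4 at -0.52 (edgeR, SE 0.06, adjusted p = 3.6e-06), the transcription factor gene Irf8 at -0.41 (edgeR, SE 0.06, adjusted p = 6.6e-05) and Nek7, which encodes a partner of NLRP3, at -0.14 (edgeR, SE 0.05, adjusted p = 0.0478). The call of Nek7 was lost in 8 of 14 alternative fits, among them DESeq2 and those without control replicate 2, control replicate 3, LPS replicate 2 or LPS replicate 3, with adjusted p from 0.0283 to 0.205 over all 14. Among the 15 higher regulators, Dhx33 was not called in 5 of the 14 fits, with DESeq2 and without control replicate 1, control replicate 3, LPS replicate 2 or LPS replicate 3 (adjusted p 0.0053 to 0.161). Gm12250, not called over all libraries, was called in the fit without control replicate 3 (adjusted p from 0.00775 to 0.29 over the 14). Both were named for these changes after their values were seen.

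Of the other sensors and NLR proteins, 9 of 16 genes in the table were tested, 3 of them higher, 2 lower and 4 not called. The DEG were Nod2 and Nod1, sensors of bacterial cell wall fragments that do not form inflammasomes of the kind described here. Nod2 went from 3.82 ± 0.605 to 17.8 ± 0.806 CPM (SD, n = 3), by 2.22 (edgeR, SE 0.13, adjusted p = 4.9e-09). Nod1 had 1, 4 and 3 counts in control and 48, 56 and 29 with LPS, a log2 fold change of 4.13 (edgeR, SE 0.47, adjusted p = 6.7e-06). The other called genes were Nlrc5, which drives MHC class I genes, higher by 1.28 (edgeR, SE 0.08, adjusted p = 4.2e-09), and Nlrp10 at -0.68 (adjusted p = 5.6e-05) and Nlrx1 at -0.51 (adjusted p = 0.0138), all named with their values in view. Nlrx1 was not called without control replicate 2 (edgeR, adjusted p = 0.0713). Of the other NAIP genes, named as paralogs of Naip2 and Naip5 after their values were seen, Naip6 had a log2 fold change of 0.12 (edgeR, adjusted p = 0.443) and Naip1 one of -0.99 (edgeR, adjusted p = 0.0723) at 7 to 24 counts per library. The DNA sensor Aim2, chosen with its values in view, differed by -0.06 in log2 terms (edgeR, SE 0.08, adjusted p = 0.595), from 587, 621 and 596 counts in control and 473, 524 and 580 with LPS. The pyrin gene Mefv, also chosen with its values in view, had 0 counts in every control library and 6, 5 and 0 with LPS, too few for a test.

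Among other gasdermins and genes of membrane rupture or repair, 7 of 14 genes were tested, with 2 higher, 1 lower and 4 not called. None was a DEG by edgeR, also with the unadjusted p in place of the adjusted one, or by DESeq2. Ninj1, whose product ruptures the plasma membrane late in pyroptosis, was singled out after its values were seen. It rose from 75.2 to 78.0 CPM in the control samples to 134 to 142 CPM with LPS, by 0.85 (edgeR, SE 0.05, adjusted p = 1.5e-09), the largest change of that list. The other called genes, named after their values were seen, were both of the ESCRT machinery, which mends membranes, Chmp4b at 0.43 (edgeR, adjusted p = 2.3e-06) and Vps4a at -0.21 (edgeR, adjusted p = 0.00304). Gsdme, another gasdermin named with its values in view, had a log2 fold change of 0.02 (edgeR, SE 0.17, adjusted p = 0.93), and the other gasdermins, also named after their values were seen, had at most 9 counts in any library. Of 8 other caspases, 6 were tested, 1 of them higher and 2 lower, again with no DEG by either tool or with the unadjusted p. With 7 and 6 genes tested, the counts of the gasdermin and caspase lists say little beside the shares over all tested genes. The one that rose was Casp8, by 0.42 (edgeR, SE 0.06, adjusted p = 3.9e-05), singled out after its values were seen.

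**Figure D5:**
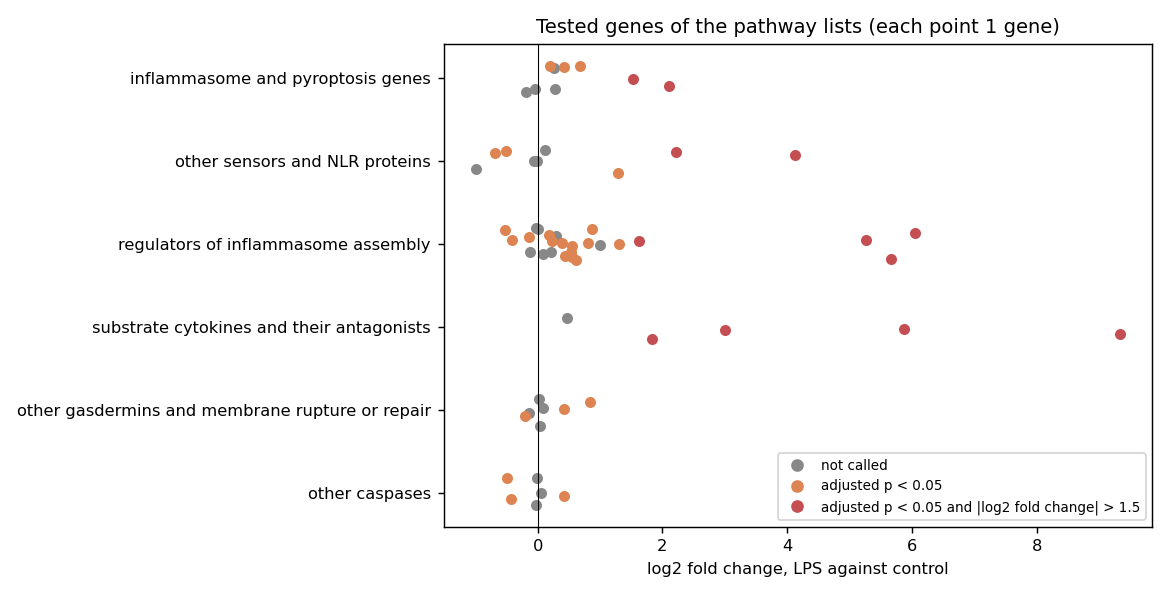
The log2 fold change, LPS against control, of each tested gene in the 10 genes described and in 5 further lists, each point 1 gene, DEG in red, other called genes in orange and genes not called in grey, with vertical scatter added for legibility. Substrate cytokines reach the highest values, and no gene of the gasdermin or caspase lists passes a log2 fold change of 1.5.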

How the data were processed

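RNA-seq counts of 6 libraries of N9 microglia were analysed, 3 control and 3 LPS, grouped by the labels of the series. The authors deposited whole-number read counts per gene without normalization for 54532 genes, and the submitters' processing notes name featureCounts 1.5.0-p3 and the build mm10. The aligner, the annotation release, the read length and the handling of strand are not given in the sources used here, and reads of related genes could be divided or dropped by that counting. A deposited table of the authors' own comparison, made with DESeq2, holds fold changes, p-values, normalized values and FPKM, and was not used. Gene positions are those of the count table, which for the 10 genes are the same as in GENCODE release M21.

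Counts were tested with edgeR 4.0.16 (R 4.3.3): TMM normalization, filterByExpr by group, prior count 0.125, no replicate term, and Benjamini-Hochberg adjustment over the 12296 genes tested. The thresholds for a DEG follow the study's methods. The standard error is the log2 fold change divided by the square root of F. Totals per library ran from 16363767 to 17956772, and 3 counts are between 0.161 and 0.19 CPM. Counting intervals and bounds cover counting error only, since reads were not collapsed by molecular identifiers and copies of 1 molecule may count more than once. Within-library ratios used 0.5 added to each count and an exact permutation test in scipy 1.17.1. The alternatives were DESeq2 1.42.0, RLE size factors, no filter (also with robust dispersion), a mean of at least 10 counts, robust dispersion, a prior count of 2, a replicate block and each library left out. The named genes are the 10 members, every DEG of the other lists (at most 6 per list), and for Nlrp3, Casp4 and the most abundant member that was not a DEG the 3 genes closest in log2 CPM, and other genes of the 5 further lists are marked as chosen after their values were seen. Markers of cell types are named as checks. Values of some genes of the other lists are not reported here. The members, lists and tests were chosen with earlier results of these data known. On simulated counts of 54532 genes, edgeR recovered 100 of 100 genes changed by a log2 fold change of 1, and 100 of 100 changed by 2, with 14 false calls among 12318 tested. DESeq2 recovered 99 and 100, with 12 false calls among 13307. No smaller change was simulated, so these recoveries do not bear on the calls of Casp1 (0.67), Naip2 (0.42) and Gsdmd (0.20). Recovery was not split by count level, so it does not bear on genes with few counts such as Nlrp1a. The simulation changed 100 genes by each size, whereas 4221 genes were called in the data.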

Additional observations from a re-analysis of the deposited data

How the results depend on the processing

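The number of members higher with LPS lay between 4 and 5 in every one of the 14 alternative fits, and Nlrp3, Casp1, Casp4 and Naip2 were called in all of them. The number of up-regulated DEG among the 10 changed in 1 of these fits, to 1 without control replicate 1, for a range of 1 to 2 when single libraries were omitted. The number lower at an adjusted p under 0.05, and the number of down-regulated DEG, rose from 0 to 1 with DESeq2, with no filter and with no filter and robust dispersion, and had a range of 0 to 1 when single libraries were omitted. In each case the gene was Nlrp1a, which these fits tested and the fit of the report did not. Without the filter, the prior degrees of freedom were infinite. When single libraries were omitted, the number lower had a range of 1 to 2 among other sensors (1 without control replicate 2) and of 1 to 2 among gasdermins and repair genes (2 without LPS replicate 3 or without control replicate 1). The log2 fold change of Nlrp1b had a range of -0.09096 to 0.04015 when single libraries were omitted, turning to 0.04015 without LPS replicate 2 (edgeR adjusted p = 0.888), and the cause was not tested. The counts of the other lists stayed within 1.5 times in 137 comparisons and moved in 3, and the 6 within-library ratios kept their direction in all 42. The difference for Nlrp1a to Nlrp1b ran from -3.103 to -1.553 when single libraries were omitted, with -1.553 without LPS replicate 1, and was -1.763 with a pseudocount of 2. Same-numbered control and LPS libraries deviated from their group means with correlations of 0.136, 0.0588 and -0.00415 over 12296 genes, so the numbers were not taken as pairs. Control replicates 2 and 3 and LPS replicate 3 did not correlate best with their own number. With the replicate block, 5 members were higher, 0 lower and 2 up-regulated DEG, and over all genes the calls at an adjusted p under 0.05 went from 4221 to 4474. Nlrp1a was the member with the fewest reads, at 8.17 counts per library.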
